A study of Danio rerio with 12 samples.

Results

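Apolipoproteins are the proteins that carry fat and cholesterol through plasma, and the liver and gut make most of them. Here 10 apolipoprotein genes of adult zebrafish liver are described: apoa1a, apoa1b, apoa2, apoba, apobb.1, apobb.2, apoc1, apoc2, apoea and apoeb. They were chosen by their zebrafish symbols, and all 10 were found among the 32520 genes listed and among the 14509 genes with enough counts to be tested. The libraries are 6 of glo2-/- fish, homozygous for a CRISPR knockout of glyoxalase 2, and 6 of glo2+/+ fish. All 12 came from whole liver of adults of the Tg(fli1:EGFP) line, which carries a green fluorescent protein under an endothelial promoter, and all were marked as not trained. The labels give neither the age in months, the sex, what the knockout allele removes, nor whether each library is a separate fish. The tests treat the libraries as independent. If some libraries share a fish, the p-values cannot be carried over to fish of these genotypes, and some of the variation may be technical.

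A lipoprotein particle is a droplet of triglyceride and cholesteryl ester in a shell of phospholipid and protein. Apolipoprotein B is the non-exchangeable scaffold of the particles that leave the liver and gut, apolipoprotein A-I is the main protein of high density lipoprotein, and the small exchangeable apolipoproteins C and E tune lipase activity and receptor uptake. Zebrafish keep several copies of some of these genes: apoa1a and apoa1b for apolipoprotein A-I, apoba, apobb.1 and apobb.2 for apolipoprotein B, and apoea and apoeb for apolipoprotein E.

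Each library held between 17433960 and 18465485 estimated counts. All 25 hepatocyte markers were tested, with none at 0 in any library, among them the liver fatty acid binding protein gene fabp10a at 4972 to 24573 CPM (counts per 1000000). Markers of exocrine pancreas, a tissue next to the liver, took 0.0124% to 1.07% of the counts in glo2-/- and 0.00485% to 0.385% in glo2+/+ libraries. HAGH (ENSDARG00000025338), the targeted gene, had 76.1 to 88.1 CPM in glo2-/- and 91.6 to 105 CPM in glo2+/+ libraries. In bulk tissue, fewer cells of a type and less RNA per cell cannot be told apart. CPM here were scaled with TMM factors, which lay between 0.817 and 1.15, and the 3 libraries with the lowest factors (glo2-/- replicate 4 and glo2+/+ replicates 2 and 3) were the 3 with the highest apoa1b CPM.

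The 10 genes together took 13.8% to 21.3% of all counts in glo2-/- and 17.7% to 21.4% in glo2+/+ libraries. In glo2-/- replicates 1 to 6 the summed share was 18.4%, 17.7%, 16.4%, 21.3%, 13.8% and 16.3%, and in glo2+/+ replicates 1 to 6 it was 18.3%, 21.4%, 20.8%, 18.4%, 18.01% and 17.7%. The means were 17.3% ± 2.48 in glo2-/- and 19.1% ± 1.58 in glo2+/+ livers (SD, n = 6 each), and the genotypes overlapped, with 3 glo2-/- libraries below the lowest glo2+/+ library. The 95% Wilson interval of any of these shares reached at most 0.0188 percentage points to either side, which covers counting error only. Of the deposited TPM (a level per transcript length, scaled to a sum of 1000000 per library), the same genes held 21.7% ± 3.14 in glo2-/- and 23.6% ± 1.28 in glo2+/+ libraries (SD, n = 6 each). apoa1b alone made up 66.2% ± 4.27 of the apolipoprotein counts in glo2-/- and 66.1% ± 4.55 in glo2+/+ libraries (SD, n = 6 each).

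**Figure D1:**
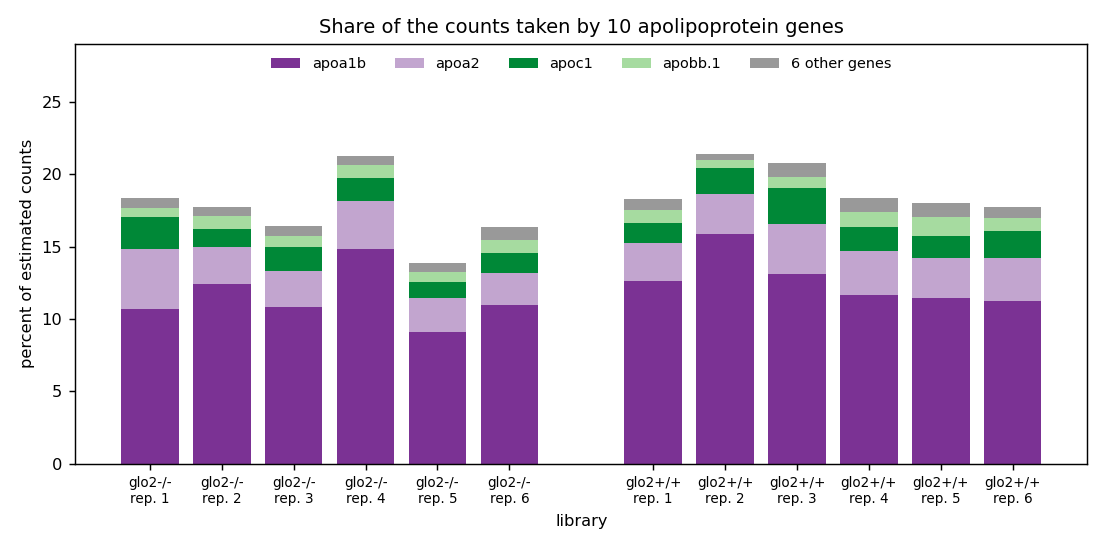
Percent of all estimated counts taken by the 10 apolipoprotein genes in each of 12 libraries (x axis, glo2-/- on the left), stacked by gene. apoa1b is the tallest block in every bar, and glo2-/- replicate 5 has the lowest sum at 13.8%.

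Per transcript length, the 10 genes differed widely in level and kept nearly the same order in every library. apoa1b was the highest gene of each of the 12 libraries, with 99887 to 160994 TPM in glo2-/- and 117146 to 159723 TPM in glo2+/+. apoa2, a second high density lipoprotein protein, ranked 2 or 3 of all genes with a mean of 60028 TPM in glo2-/- and 62202 TPM in glo2+/+. apoc1, known in mammals as an inhibitor of lipoprotein lipase and of cholesteryl ester transfer, ranked 4 to 8 with 26918 TPM in glo2-/- and 31082 TPM in glo2+/+. Below these came apoa1a (4320 TPM in glo2-/- and 4748 TPM in glo2+/+) and apoc2, the activator of lipoprotein lipase (2436 TPM in glo2-/- and 3242 TPM in glo2+/+). The large scaffold genes were lower on this scale than on the scale of counts: apobb.1 held 749 TPM in glo2-/- and 841 TPM in glo2+/+, and apoba held 126 TPM in glo2-/- and 142 TPM in glo2+/+. apoeb stood between them at 320 TPM in glo2-/- and 641 TPM in glo2+/+. apobb.2 followed at 20.3 TPM in glo2-/- and 12.58 TPM in glo2+/+, and apoea was near the limit of detection at 0.967 TPM in glo2-/- and 0.774 TPM in glo2+/+, from 3 to 27 estimated counts per library.

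Of the 9 neighbouring pairs in this order, 7 held in 12 of 12 libraries. apoa1a exceeded apoc2 in all 6 glo2-/- but in 4 glo2+/+ libraries, with an apoa1a to apoc2 TPM ratio between 0.539 and 3.19. apobb.1 likewise exceeded apoeb in all 6 glo2-/- and in 4 glo2+/+ libraries, with a ratio between 0.719 and 4.25. These 2 pairs of neighbours are therefore the ones whose order did not hold in every library.

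**Figure D2:**
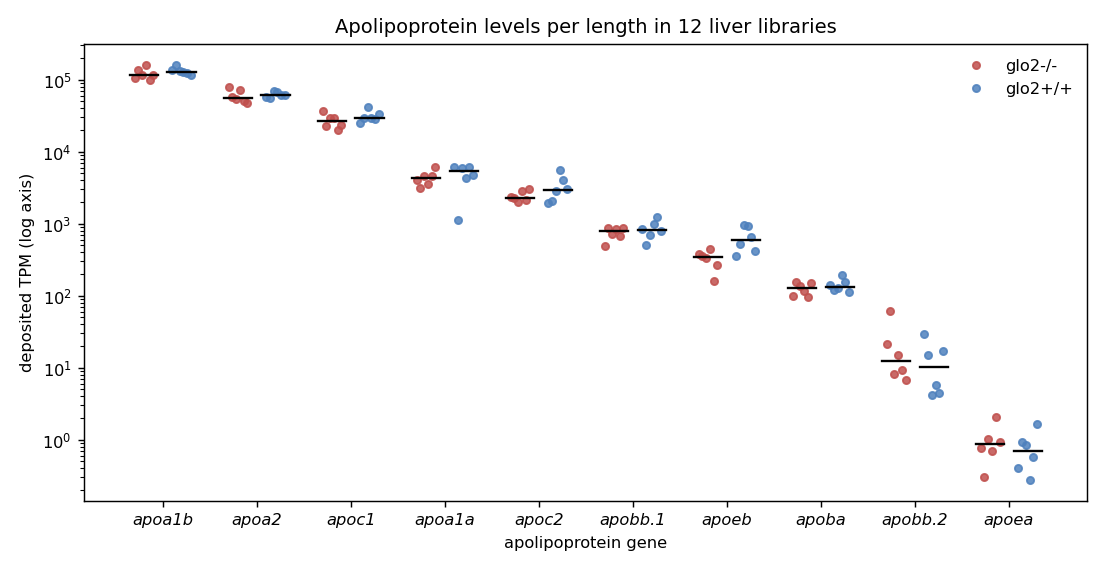
Deposited TPM (log axis) of each apolipoprotein gene in 6 glo2-/- (left) and 6 glo2+/+ (right) libraries; points are libraries and black lines are medians. Levels run from 99887 TPM or more for apoa1b to about 1 TPM for apoea, and 1 glo2+/+ library (replicate 2) lies apart from the others in apoa1a.

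Of each duplicated gene, 1 copy supplied most of the transcripts, and the ranges of the split between copies overlapped between the genotypes. apoa1b gave 96.5% ± 1.15 of the summed TPM of apoa1a and apoa1b in glo2-/- and 96.5% ± 1.48 in glo2+/+ livers (SD, n = 6 each). apobb.1 gave 83.7% ± 2.85 of the apolipoprotein B transcripts in glo2-/- and 84.0% ± 3.24 in glo2+/+ livers (SD, n = 6 each), most of the rest being apoba. apobb.2 gave 2.23% ± 1.93 in glo2-/- and 1.396% ± 1.104 in glo2+/+ livers (SD, n = 6 each). apoeb gave 99.6% ± 0.447 of the apolipoprotein E transcripts in glo2-/- and 99.9% ± 0.127 in glo2+/+ livers (SD, n = 6 each).

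None of these 4 shares differed past an adjusted p of 0.05 by an exact two-sided permutation test over 924 assignments, whose smallest possible p is 0.00216. The differences, glo2-/- minus glo2+/+, were -0.0014 percentage points for apoa1b (exact p = 0.996), -0.302 for apobb.1 (exact p = 0.872), 0.834 for apobb.2 (exact p = 0.409) and -0.253 for apoeb (exact p = 0.160, adjusted 0.641). On the log2 ratio of apoeb to apoea (each as TPM + 1) in place of the share, the difference was -1.11 (unadjusted exact permutation p = 0.0433). apoea had 3 to 27 counts and 0.274 to 2.08 TPM per library, so the added 1 weighs heavily in its term. The log2 fold change of apoeb by itself was -1.07 by edgeR. This ratio therefore cannot tell a shift between the copies from a difference in apoeb alone. kallisto divides reads shared by several transcripts according to likelihood, so the split between copies that share reads is uncertain. How similar these copies are in sequence was not examined. The estimated counts of apoa1a and of apoba were whole numbers in all 12 libraries.

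2 libraries stood apart in copy usage. In glo2+/+ replicate 2, apoa1b held 99.3% of the apolipoprotein A-I transcripts, against 95.3% to 96.7% in the other glo2+/+ libraries. That library had the lowest apoa1a level of all, 1005 CPM, and the highest apoa1b level, 180026 CPM. In glo2-/- replicate 5, apoeb held 98.7% of the apolipoprotein E transcripts, against 99.6% to 99.9% in the other glo2-/- libraries, with the lowest apoeb (157 CPM) and the highest apoea (1.35 CPM) of all libraries.

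The genotypes were then compared gene by gene. None of the 10 genes passed an adjusted p of 0.05 by edgeR's quasi-likelihood test, nor by DESeq2. Over all genes, edgeR called 0.00689% of 14509 (1 gene) and DESeq2 0.193% of 17629. At an unadjusted p under 0.05 edgeR gave 1 of the 10 genes, apoeb, against 5.88% of all tested genes (3.41% lower and 2.47% higher in glo2-/-). This balance turned with the scaling. With TMM factors 495 genes were lower and 358 higher. With library totals alone 238 were lower and 443 higher, and on log2(TPM + 1) 204 lower and 474 higher. apoeb remained the 1 apolipoprotein gene under that p in these 3 settings. Over the alternative fits 1 to 3 of the 10 genes were under it, with 2 by limma-voom and 3 without glo2+/+ replicate 2. Of the 10, 8 had a negative log2 fold change, with a median of -0.23. Over the alternative fits 7 to 9 were negative, with 7 on log2(TPM + 1). Of all tested genes 52.4% were negative, with a median of -0.01. Of the 25 hepatocyte markers, 20 were negative with a median of -0.12, the same share as among the apolipoprotein genes. On log2 CPM several of the 10 varied together across livers, as described further on, while on log2(TPM + 1) no pair passed an adjusted p of 0.05. No apolipoprotein gene separated the genotypes without overlap, against 0.248% of all tested genes.

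Among the genes of high density lipoprotein, apoa1b had 81483, 106990 and 171348 CPM (lowest, median and highest) in glo2-/- livers, against 105328, 118870 and 180026 CPM in glo2+/+ livers. The lower end of the range was thus held by 3 glo2-/- libraries and the groups overlapped. Its log2 fold change was -0.21 (SE 0.20, adjusted p by edgeR = 0.888). apoa2 had 19480, 24043 and 43319 CPM in glo2-/- livers, against 26393, 28150 and 42608 CPM in glo2+/+ livers. glo2-/- libraries held both ends of its range, with 4 below every glo2+/+ library and 1 above, and the log2 fold change was -0.11 (SE 0.21, adjusted p by edgeR = 0.954). apoa1a had 2223, 3093 and 3985 CPM in glo2-/- livers, against 1005, 3856 and 5852 CPM in glo2+/+ livers. Here glo2+/+ libraries held both ends, and the log2 fold change of -0.23 (SE 0.31, edgeR adjusted p = 0.918) was -0.43 without glo2+/+ replicate 2 and 0.02 on log2(TPM + 1).

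Among the apolipoprotein B scaffold genes, apobb.1 had 6189, 7837 and 10297 CPM in glo2-/- livers, against 6540, 9320 and 12459 CPM in glo2+/+ livers. The groups overlapped over most of their range, with a log2 fold change of -0.23 (SE 0.17, edgeR adjusted p = 0.848). apoba had 1055, 1642 and 1907 CPM in glo2-/- livers, against 1388, 1846 and 2222 CPM in glo2+/+ livers, with a log2 fold change of -0.26 (SE 0.15, edgeR adjusted p = 0.828). apobb.2 had 43.6, 93.6 and 436 CPM in glo2-/- livers, against 31.5, 82.7 and 220 CPM in glo2+/+ livers. Its highest value belonged to glo2-/- replicate 2, and the log2 fold change of 0.63 (SE 0.62, edgeR adjusted p = 0.889) was -0.03 without that library.

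Among the genes that tune lipases, apoc2 had 1064, 1394 and 1872 CPM in glo2-/- livers, against 1135, 1943 and 2860 CPM in glo2+/+ livers. All 6 glo2-/- libraries lay below the glo2+/+ median, although the groups overlapped. The log2 fold change was -0.45 (SE 0.22, 95% interval -0.92 to 0.02, edgeR adjusted p = 0.819). apoc1 had 9806, 13863 and 23236 CPM in glo2-/- livers, against 14065, 16474 and 30221 CPM in glo2+/+ livers. 3 glo2-/- libraries lay below every glo2+/+ library, and its log2 fold change of -0.30 (SE 0.24, edgeR adjusted p = 0.870) was -0.11 without glo2+/+ replicate 3.

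The largest difference among the 10 genes was that of apoeb, a ligand of the low density lipoprotein receptor family. In glo2-/- replicates 1 to 6 it had 505, 379, 348, 567, 157 and 259.5 CPM. In glo2+/+ replicates 1 to 6 it had 409, 705, 1430, 950, 677 and 468 CPM. All 6 glo2-/- libraries lay below the glo2+/+ median of 691 CPM, and 4 of them lay below every glo2+/+ library, but glo2-/- replicates 1 and 4 fell inside the glo2+/+ range. The means were 369 ± 152 CPM in glo2-/- and 773 ± 375 CPM in glo2+/+ livers (SD, n = 6 each), so that the glo2-/- mean was 47.8% of the glo2+/+ mean. The log2 fold change was -1.07 (SE 0.34, 95% interval -1.80 to -0.33), with an unadjusted p of 0.00752 and an edgeR adjusted p of 0.799. Over 24 alternative fits it lay between -1.23 and -0.80 (-0.80 without glo2+/+ replicate 3), and the adjusted p between 0.246 and 0.995. apoea, the other copy, had 0.589 ± 0.399 CPM in glo2-/- and 0.556 ± 0.369 CPM in glo2+/+ livers (SD, n = 6 each). No difference was detected in it (log2 fold change 0.10, SE 0.50, edgeR adjusted p = 0.982).

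**Figure D3:**
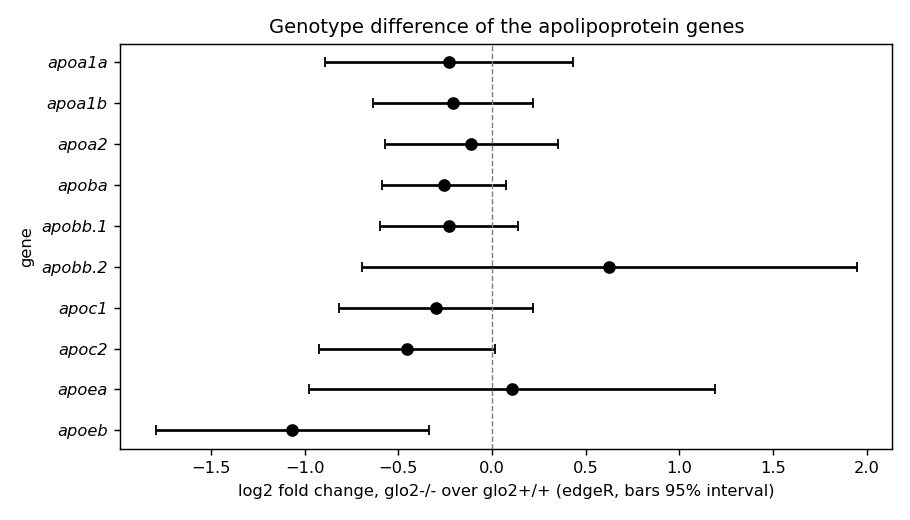
log2 fold change (x axis, glo2-/- over glo2+/+) of each apolipoprotein gene with its 95% interval from edgeR. The interval of apoeb, -1.80 to -0.33, is the one that does not include 0, and no gene passed an adjusted p of 0.05.

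Apolipoprotein E is also made by macrophages, and macrophage markers had lower values beside apoeb. All 19 tested of 30 listed markers had a negative log2 fold change (median -0.38, with 4 at an unadjusted p under 0.05 and none past the adjusted threshold by edgeR). Of all tested genes, 52.4% were negative. Those 4 are 21.1% of the tested markers, against 5.88% of all tested genes. The summed level of the 30 was 432 to 534 CPM in glo2-/- and 477 to 625.5 CPM in glo2+/+ libraries, and these ranges overlapped. Of this sum, cd68 alone had 195 to 338 CPM over the 12 libraries. Other markers were low, such as c1qa at 0.599 to 2.81 CPM and csf1ra at 0.539 to 6.30 CPM. An MPEG1 copy (ENSDARG00000078569), 1 of the 30, was at 0 in all libraries. The part of these cells in the apoeb difference was not tested. Genes of sterol synthesis lay the other way, with 22 of 24 positive (median log2 fold change 1.19, with 9 at an unadjusted p under 0.05 and none past the adjusted threshold by edgeR). Those 9 are 37.5% of the tested list, against 5.88% of all tested genes. Genes of a shared pathway can vary together, so the 9 do not count as independent results. The mean log2 CPM of the 24 genes was 4.59 to 7.54 in glo2-/- and 4.13 to 6.50 in glo2+/+ libraries, and these ranges overlapped. apoeb log2 CPM and this sterol synthesis mean had r = -0.68 (permutation adjusted p = 0.111) and rho = -0.56 (permutation adjusted p = 0.283) over the 12 libraries. The r was -0.41 within glo2-/- and -0.75 within glo2+/+ libraries, and -0.33 without the 2 libraries farthest from the median of the sterol synthesis mean.

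Livers of the same genotype differed more in some apolipoprotein genes than in others. Of 416 abundant genes (average log2 CPM of at least 8), the median SD of log2 CPM within a genotype was 0.28. apoeb had an SD of 0.67, larger than that of 91.8% of these genes, with a highest library 9.09 times the lowest over all 12. apoa1a also had an SD of 0.67 (larger than 91.6%), but without glo2+/+ replicate 2 it was 0.34. apoc1 (0.44), apoc2 (0.41), apoa2 (0.38) and apoa1b (0.35) followed, and apobb.1 (0.30) and apoba (0.27) were close to the median of abundant genes. On log2(TPM + 1) the SD of apoa1b was 0.21, of apoa2 0.23 and of apoc1 0.28. apobb.2 had an SD of 1.21 with a highest library 13.8 times the lowest, and apoea 0.80, both below the abundance limit.

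The genes did not all vary together. Of 45 pairs compared over the 12 libraries, 32 had a positive Pearson r of log2 CPM and 4 passed an adjusted p of 0.05. apoa2 and apoc1 had the closest relation, with r = 0.90 (permutation adjusted p = 0.0018) and rho = 0.90 (permutation adjusted p = 0.00855). It held within glo2-/- (r = 0.91) and within glo2+/+ libraries (r = 0.97), and r was 0.82 without the 2 libraries farthest from the median of apoa2. The other 3 pairs joined apoeb with apoba (r = 0.78), with apoc1 (r = 0.78) and with apoc2 (r = 0.76), each with a permutation adjusted p of 0.0443. Their rho values were 0.68, 0.71 and 0.76 and did not pass (permutation adjusted p = 0.120, 0.120 and 0.101). Without the 2 libraries farthest from the median of apoba, apoc1 and apoc2 in turn, their r was 0.52, 0.42 and 0.65. Left out were glo2-/- replicate 5 each time and glo2+/+ replicate 4, 3 and 4. Leaving out the ends of the range of 1 gene can by itself lower r. These values therefore cannot tell whether the relations rest on those libraries. Within glo2-/- libraries r was 0.67, 0.87 and 0.66 for the same pairs, and within glo2+/+ libraries 0.75, 0.66 and 0.69.

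All pairs share the scaling of each library. On log2(TPM + 1) none of the 45 pairs passed, with r = 0.73 for apoa2 and apoc1 (permutation adjusted p = 0.129). Between copies of 1 gene r had no common sign. It was -0.30 for apoa1a and apoa1b and -0.23 for apoea and apoeb. Among the apolipoprotein B genes it was 0.595 for apoba and apobb.1, -0.10 for apoba and apobb.2 and -0.26 for apobb.1 and apobb.2, and none of these 5 pairs passed the threshold. In the gene order of RefSeq (assembly GRCz12tu, used for order alone), apoeb, apoc1, apoc4, apoa2 and apoc2 are neighbours with 0 other coding genes between them. apoa1a, apoa1b and apoba lie on other chromosomes, as do apoea and the apobb genes, and 482 coding genes separate apobb.1 from apobb.2. Among the neighbours, r ran from 0.42 for apoc1 and apoc2 to 0.90 for apoa2 and apoc1, and apoba with apoeb is a pair of similar r on different chromosomes. apoc4, named here after its value was seen, had a log2 fold change of -0.07 (SE 0.21, edgeR adjusted p = 0.971).

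**Figure D4:**
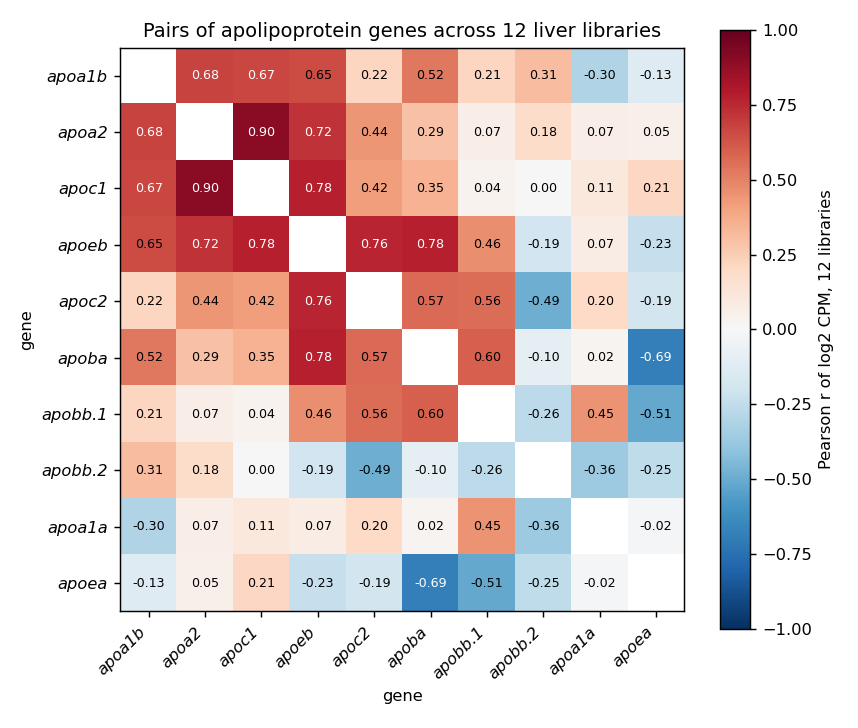
Pearson r of log2 CPM over 12 libraries for each pair of apolipoprotein genes (color scale from -1 to 1, the value printed in each cell). The darkest cell is apoa2 with apoc1 at 0.90, and apoa1a, apobb.2 and apoea have low or negative r with most others.

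Against the exocrine pancreas score (the mean log2 CPM of its markers) and the sterol synthesis score, 20 relations were computed and none passed an adjusted p of 0.05. apoea was closest to the pancreas score, with r = 0.73 (permutation adjusted p = 0.111) and rho = 0.79 (permutation adjusted p = 0.0588). Its r was 0.70 within glo2-/- and 0.78 within glo2+/+ libraries, and 0.77 without the 2 libraries farthest from the median of the score. apoba ran the other way, with r = -0.62 for the pancreas score (permutation adjusted p = 0.140) and -0.66 for the sterol synthesis score (permutation adjusted p = 0.111). Its rho values were -0.64 and -0.59 (permutation adjusted p = 0.283 each), and r without 2 libraries was -0.49 and -0.35. For the pancreas score the r of apoba was -0.76 within glo2-/- and -0.63 within glo2+/+ libraries. For the sterol synthesis score it was -0.33 within glo2-/- and -0.90 within glo2+/+ libraries.

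The genes whose levels followed apoa1b most closely over the 12 libraries, of 2385 genes with an average log2 CPM of at least 5, were ITIH2 (r = 0.90), agt (0.88), FGB (0.88), si:dkey-90m5.4 (0.88) and FGG (0.87). ITIH2 encodes an inter-alpha-trypsin inhibitor heavy chain, agt angiotensinogen, and FGB and FGG chains of fibrinogen, all proteins of plasma. Those closest to apobb.1 were cyp27a1.1 (r = 0.83), a sterol 27-hydroxylase gene, TAX1BP1 (0.83), CYP1A1 (0.81), LPIN2 (0.80), a phosphatidate phosphatase gene, and MFSD2A (0.79), a lysolipid transporter gene. Both rankings were computed on log2 CPM, where all genes share the scaling of each library. How far r can depend on that scale is seen in other pairs. For apoa1b with apoa2 it was 0.68 on log2 CPM and 0.14 on log2(TPM + 1), and with apoc1 0.67 and 0.10.

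Of the other genes that build, bind and remodel lipoproteins, 127 of 149 listed were tested, and edgeR and DESeq2 called none of them in either direction. At an unadjusted p under 0.05 edgeR gave 10 of the 127 (7.87%), against 5.88% of all tested genes, and 72 of the 127 had a negative and 55 a positive log2 fold change (median -0.07). The 11 other apolipoproteins tested had 7 negative and 4 positive values, and 1 (9.09%) had an unadjusted p under 0.05 by edgeR. Among them apoa4b.1, an apolipoprotein A-IV gene, had 818 ± 304 CPM in glo2-/- and 855 ± 238 CPM in glo2+/+ livers (SD, n = 6 each). On the same chromosome, apoa4b.2 had 12.4 ± 11.5 CPM in glo2-/- and 31.1 ± 16.4 CPM in glo2+/+ livers (SD, n = 6 each), with a log2 fold change of -1.33 (SE 0.59, edgeR adjusted p = 0.819) and overlapping groups. For apoa4b.3 the log2 fold change was -0.56 (SE 0.68), for apom, which carries sphingosine-1-phosphate on high density lipoprotein, -0.33 (SE 0.32), and for APOD (ENSDARG00000060350), a lipocalin, 1.14 (SE 1.02), a value that turned negative under 6 alternatives.

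Of 31 genes of lipoprotein assembly and secretion tested, 19 were negative and 12 positive. By edgeR 3 (9.68%) had an unadjusted p under 0.05, against 5.88% of all tested genes. MTTP, the transfer protein that loads lipid onto apolipoprotein B, had 308 ± 51.7 CPM in glo2-/- and 335 ± 73.15 CPM in glo2+/+ livers (SD, n = 6 each; log2 fold change -0.12, SE 0.17). PLA2G12B, needed for lipoprotein expansion in mouse and zebrafish, had 616 ± 129 CPM in glo2-/- and 897.5 ± 286 CPM in glo2+/+ livers (SD, n = 6 each). Its log2 fold change was -0.54 (SE 0.21, adjusted p by edgeR = 0.819) and the groups overlapped. For mia3, which helps to export large cargo from the endoplasmic reticulum, the log2 fold change was -0.26 (SE 0.11, adjusted p by edgeR = 0.819).

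Of 24 genes of receptors and uptake tested, 13 were negative and 11 positive. By edgeR 1 (4.17%) had an unadjusted p under 0.05, against 5.88% of all tested genes. This 1 gene was LRPAP1, the chaperone of the low density lipoprotein receptor family. It had 22.3 to 27.1 CPM in glo2-/- and 12.08 to 21.8 CPM in glo2+/+ libraries. It was the 1 gene of the 127 listed and tested without overlap between the genotypes, against 36 of all 14509 tested genes (0.248%). LRPAP1 had a log2 fold change of 0.37 (SE 0.14, edgeR adjusted p = 0.819). The receptor gene ldlra had 133 to 577 CPM in glo2-/- and 123 to 425 CPM in glo2+/+ libraries. Its log2 fold change was 0.11 (SE 0.42) and was -0.44 without glo2-/- replicate 4. Values were 0.03 (SE 0.26) for SCARB1, the high density lipoprotein receptor, which had at most 4.38 CPM in any library. For the LRP1 copies ENSDARG00000029146 and ENSDARG00000097827 they were 0.23 (SE 0.20) and 0.13 (SE 0.33). The copy ENSDARG00000097827 had at most 2.15 CPM in any library. For LRP1B (ENSDARG00000061517), which had at most 10.06 CPM in any library, the value was -2.0 (SE 0.98).

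Of 23 genes of lipases and plasma remodelling tested, 13 were negative and 10 positive. By edgeR 2 (8.70%) had an unadjusted p under 0.05, against 5.88% of all tested genes. CETP, which moves cholesteryl ester between lipoproteins, had the smallest p of all 127 listed genes. It had 94.0 to 138 CPM in glo2-/- and 128 to 220 CPM in glo2+/+ libraries. The means were 111 ± 15.6 CPM in glo2-/- and 166 ± 34.4 CPM in glo2+/+ livers (SD, n = 6 each). The highest glo2-/- library overlapped the lowest glo2+/+ library, and the log2 fold change was -0.59 (SE 0.15, adjusted p by edgeR = 0.668). ABCA1 (ENSDARG00000074635), which exports cholesterol to apolipoprotein A-I, had 32.6 to 95.8 CPM in glo2-/- and 71.4 to 286 CPM in glo2+/+ libraries. Its log2 fold change of -1.12 (SE 0.35, edgeR adjusted p = 0.799) was -0.70 without glo2+/+ replicate 1, the library at 286 CPM. Values were -0.13 (SE 0.36) for LCAT, the cholesterol esterifying enzyme of plasma, and -0.20 (SE 0.22) for the phospholipid transfer protein gene PLTP. They were 0.06 (SE 0.13) for LIPC, hepatic lipase, -0.10 (SE 0.31) for LPL (ENSDARG00000087697), lipoprotein lipase, and -0.32 (SE 0.34) for abca1b. LCAT, PLTP and abca1b were low, with at most 8.33, 3.48 and 1.29 CPM in any library.

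Of 38 regulators tested, 20 were negative and 18 positive. By edgeR 3 (7.89%) had an unadjusted p under 0.05, against 5.88% of all tested genes. NR1H3, the oxysterol receptor LXR alpha, had 19.2 ± 3.85 CPM in glo2-/- and 33.0 ± 13.5 CPM in glo2+/+ livers (SD, n = 6 each), with a log2 fold change of -0.78 (SE 0.24, edgeR adjusted p = 0.791). RXRA (ENSDARG00000057737), a retinoid X receptor and in mammals a dimer partner of that receptor, had 6.27 ± 0.725 CPM in glo2-/- and 10.8 ± 4.35 CPM in glo2+/+ livers (SD, n = 6 each), with a log2 fold change of -0.79 (SE 0.24, edgeR adjusted p = 0.792). In both genes the groups overlapped and the spread was wider in glo2+/+ livers. HNF4A (ENSDARG00000021494), a hepatocyte factor that drives apolipoprotein genes in mammals, had a log2 fold change of 0.09 (SE 0.17). Those of SREBF1 and srebf2, the sterol regulatory element binding factors, were 0.19 (SE 0.37) and 0.13 (SE 0.31).

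**Figure D5:**
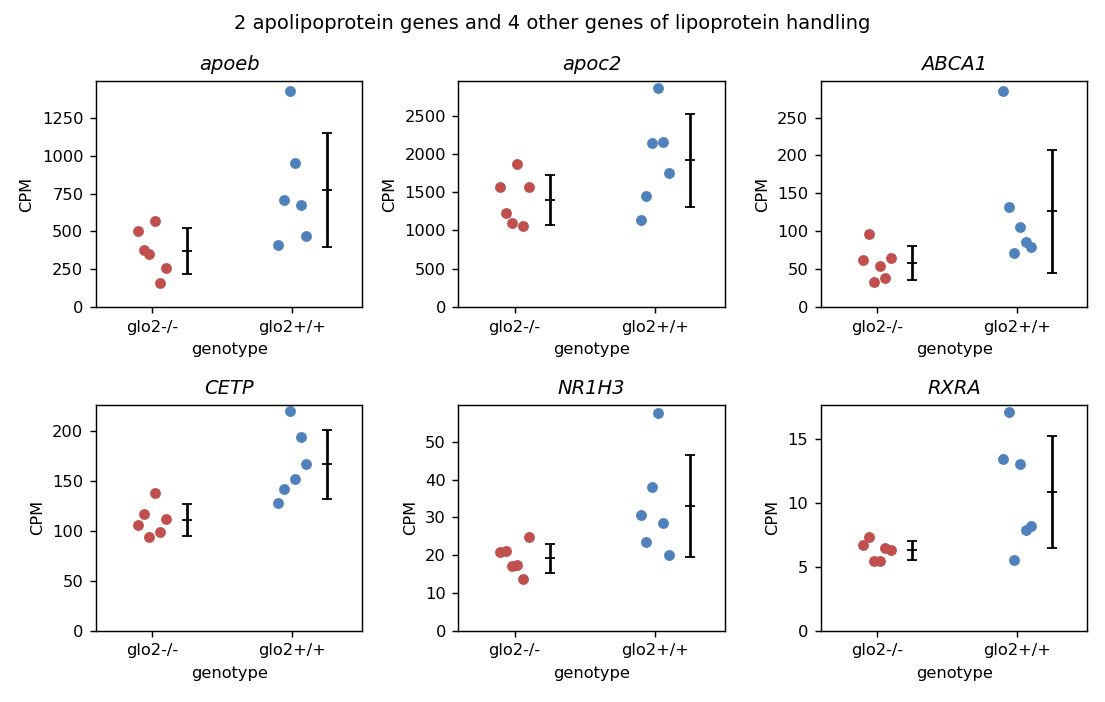
CPM of apoeb, apoc2, ABCA1 (ENSDARG00000074635), CETP, NR1H3 and RXRA (ENSDARG00000057737) in 6 glo2-/- (left) and 6 glo2+/+ (right) libraries of each panel; points are libraries, bars are mean ± SD. The glo2-/- means are lower in all 6 panels, the groups overlap in each, and none passed the adjusted threshold by edgeR. apoeb and apoc2 had the smallest p of the 10 apolipoprotein genes, and ABCA1 and CETP, and NR1H3 and RXRA, those of their lists. The panels therefore do not stand for the 10 genes or for those lists. LRPAP1, with the smallest p of the receptor list, was higher in glo2-/- libraries without overlap and is not shown. Of the 127 listed genes tested, 72 had a negative and 55 a positive log2 fold change.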

How the data were processed

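RNA was measured in 12 libraries of adult whole liver, extracted with TRIzol and prepared for BGISeq-500 sequencing (per the labels' protocols). The authors deposited estimated counts per gene and TPM for each library. The submitters' processing notes name Trim Galore 0.6.4, kallisto 0.4.6 and GRCz11; annotation release, summing to genes and strand setting were not given in the sources used here. Non-whole values (off by more than 0.001) made up 19.1%. Counts were rounded and compared by edgeR 4.0.16 under R 4.3.3 (filterByExpr, TMM factors, quasi-likelihood test, genotype as the only term), with Benjamini-Hochberg adjustment over the 14509 tested genes. SEs and 95% intervals come from the F statistic, and the prior count for log2 CPM was 2. On simulated counts of the same design, the fit recovered 55.6% of genes changed by 1 log2 unit and 89.7% of those changed by 2. It made 6 false calls among 14224 genes. Those counts were drawn independently for each gene, without genes that vary together or differences in composition between libraries. The recovered shares may therefore not carry over to the real libraries. Copy shares used exact permutation tests, and correlations 100000 permutations, of the deposited TPM and of log2 CPM.

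The 10 genes, the lists and the tests were chosen with earlier results of these data known. apoba was matched to the only gene of the name table called APOB (ENSDARG00000042780), the other 9 by symbol; 31 of 348 list entries matched no gene. Genes with a symbol shared by several copies are printed with their identifier. The text names all 10 genes, per list those past the threshold or the 2 with the smallest p, and a fixed set, of which apoh was not tested and some are not reported here. No library pair was a duplicate (smallest chi-square per degree of freedom 33.6 over 66 pairs). Alternatives were other scalings and filters, DESeq2 1.42.0, limma 3.58.1, TPM with pseudocounts 1 and 0.1, a replicate block, a pancreas covariate, and libraries left out.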

Additional observations from a re-analysis of the deposited data

Results flagged for a closer look

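Each set of 6 values of a genotype was searched for a library far from the other 5. Of 86 sets, 7 held one, and chance flags about 1 set in 20. Among the apolipoprotein genes, the apoeb share of the apolipoprotein E transcripts in glo2-/- replicate 5 was 98.7%, against 99.6% to 99.9% in the other glo2-/- libraries. The apoa1b share of the apolipoprotein A-I transcripts in glo2+/+ replicate 2 was 99.3%, against 95.3% to 96.7% in the others. The log2 CPM of apoa2 in glo2+/+ replicate 3 was 15.38, against 14.69 to 14.94 in the others. That library had the lowest TMM factor (0.817). On the deposited TPM it did not lie far apart in apoa2, with 70051 beside 67782 in glo2+/+ replicate 4 and 55968 in the lowest, replicate 2. Among the other genes, the log2 CPM of ldlra in glo2-/- replicate 4 was 9.17 (others 7.05 to 7.61) and that of srebf2 in glo2-/- replicate 1 was 5.27 (others 6.58 to 7.18). In glo2+/+ replicate 3 the log2 CPM of LRPAP1 was 3.61 (others 4.18 to 4.45) and that of SREBF1 was 2.97 (others 4.24 to 4.98).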

How the results depend on the processing

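No apolipoprotein gene and no listed gene of lipoprotein handling passed the threshold under any alternative run. Over all genes the count of genes higher in glo2-/- was 0 under the stricter filter, 10 with DESeq2 and 1 to 2 with 1 library left out; the count of lower genes was 24 with DESeq2 and 0 to 1 with 1 library left out. Replicate numbers did not pair the libraries (deviations of same-numbered libraries had r from -0.28 to 0.20, with 1 of 6 over 0.1, and 2 of 12 libraries were closest to their own number). With the replicate block the counts stayed at 1 and 0, and the log2 fold change of apoeb was -1.058. The difference in the apoa1b share was 0.196 percentage points and in the apobb.1 share 0.214 without the 3 libraries highest in pancreas markers. With 1 library left out they ranged from -0.284 to 0.568 and from -1.32 to 0.5995. The log2 ratio of apoeb to apoea (each as TPM + 1) gave -1.11, the deposited TPM a summed share of 21.7% and 23.6%, and log2(TPM + 1) 0 correlated pairs.

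Among fold changes, all well short of the threshold, the sign turned for apoa1a on log2(TPM + 1) and log2(TPM + 0.1) (0.021 each), LPL on the same scales (0.0078 and 0.0081) and with limma-voom (0.049), and abca1b on them (0.010 and 0.052). Without the 3 libraries highest in pancreas markers it turned for apoea (-0.060), LRP1 (ENSDARG00000097827, -0.30) and APOD (-2.42). APOD also turned with the replicate block (-0.48), the pancreas covariate (-0.17), limma-voom (-0.87) and log2(TPM + 0.1) (-0.50), and apoa4b.1 with library totals alone (0.016). With 1 library left out, log2 fold changes ranged from -0.27 to 0.0086 for apoa2, -0.034 to 1.04 for apobb.2, -0.32 to 0.44 for apoea, -0.43 to 1.43 for APOD, -0.20 to 0.078 for apoa4b.1, -0.44 to 0.45 for ldlra, -0.12 to 0.28 for SCARB1, -0.035 to 0.305 for that LRP1 copy, -0.48 to 0.11 for LCAT, -0.026 to 0.13 for LIPC, -0.32 to 0.14 for LPL and -0.029 to 0.38 for SREBF1. The causes were not tested.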
